A study of Rattus norvegicus with 9 samples.

Results

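The glutathione transferases and antioxidant enzymes described here are 10 genes, Gstm1, Gstm2, Gstp1, Gsta1, Gsr, Gclm, Cat, Gpx2, Prdx3 and Prdx6. Every probe set (a group of short probes read as 1 value) that the platform annotation assigns to 1 of these symbols alone was taken, which gave 1 probe set for each gene, or 10 of the 10411 genes and 10 of the 15866 probe sets that are not controls. RNA came from the L4 to L6 dorsal root ganglia, which hold the cell bodies of sensory neurons, in Sprague-Dawley rats. The 3 groups were vehicle-treated normal rats, vehicle-treated rats made diabetic with streptozotocin (STZ), a toxin of insulin-producing cells, and rats with the same STZ injection that received FK1706, a derivative of the immunophilin ligand FK506. Collection fell on the day that followed 1, 2 or 3 weeks of dosing. The 9 arrays each carried equal amounts of RNA from 5 rats, so each group had 1 pool per week and no rat was measured alone. Normal rats given FK1706 were not analysed here, and age, sex and dose are not given in the sources used here.

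Glutathione, a small peptide with a reactive thiol, is joined to toxic and oxidised compounds by the glutathione transferases and is used by glutathione peroxidases to remove peroxides. Glutamate-cysteine ligase makes its precursor, and glutathione reductase returns oxidised glutathione to its reduced form. Catalase and the peroxiredoxins remove peroxides without that cycle, or with it in the case of Prdx6. Many of these genes are induced through the transcription factor NRF2, which binds antioxidant response elements in their promoters, and oxidative stress in sensory ganglia is a long-studied feature of diabetic neuropathy.

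Promoter sequence is shown because several members are textbook carriers of such elements. RefSeq start sites on GRCr8 gave a 300-base window (250 before and 50 after the start) for 8 of the 10 genes, all but Gsr and Prdx6. The core TGACNNNGC, searched on both strands, was present in 4 of these 8 windows and in 12.1% of all 33469 windows of that length. A match describes letters in a window, not a bound site. The following lines give each match in capitals with its flanking bases in lower case, read 5′ to 3′ on the strand that carries it, and the coordinates are those of the whole stretch printed. The Gstp1 match lies 53 to 61 bases before the start (stretch chr1:210769746-210769778, minus strand). The Gclm match lies 164 to 172 bases before the start (stretch chr2:213031951-213031983, minus strand, opposite to the gene). The Gpx2 match lies 5 to 13 bases before the start (stretch chr6:101230034-101230058, plus strand, opposite to the gene). The Gsta1 match lies 31 to 39 bases after the start and is printed without flanks (chr9:31216494-31216502, minus strand).
Gstp1: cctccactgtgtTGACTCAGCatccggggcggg
Gclm: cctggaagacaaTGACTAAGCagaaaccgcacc
Gpx2: agaaTGACTTAGCgaaaccaggtac
Gsta1: TGACTTTGC
The first 7 bases of the Gstp1 match also match the AP-1 element TGANTCA, which was added to the search after the values had been seen and was found in 1 of the 8 windows and in 7.33% of all windows. The windows of Gstm1, Gstm2, Cat and Prdx3 held no match to the core.

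The trimmed mean of the deposited signals ranged over the arrays from 532 (normal, week 1) down to 360 (FK1706, week 3), so the arrays were put on 1 scale by quantile normalization. Levels below are log2 of the signal plus an offset of 18.7, after that step, and no level of 1 probe set is set against that of another. All 10 probe sets passed the filter on low signal, which kept 9520 probe sets for testing. The labelled tissue was checked against 13 sensory neuron markers on the array, whose median expression percentile was 99.5 and whose lowest was 65.4 (Isl1). Their summed level lay between 16.31 and 16.36 in every array. Quantile normalization gives every array the same set of values, and most of these markers lie near its top. The narrow range of the sum was therefore partly fixed by that step and does not show equal neuron content. The summed log2 level of 12 fibroblast and matrix markers was lower in STZ vehicle (14.57 to 14.83) than in normal rats (14.85 to 15.25). With FK1706 it lay at 14.70 to 14.95. Strongly expressed genes weigh most in such a sum. In STZ vehicle against normal, 8 of the 12 genes were lower in every week and 1 was higher. The 2 that passed the test were Col1a1 (-0.82) and Col3a1 (-0.54). Dcn (-0.079) and Lum (-0.054) differed little, and Fbln1 (0.27) and Pdgfra (0.070) were higher. A list of 11 cartilage and bone markers lay at 10.73 to 11.20 in STZ vehicle, 11.58 to 11.84 in normal and 10.94 to 11.25 with FK1706. The 9 myelinating Schwann cell markers lay at 14.94 to 15.15, 15.12 to 15.19 and 14.99 to 15.08 in the same order. For 9 satellite glia markers the levels were 14.82 to 14.87, 14.82 to 14.90 and 14.83 to 14.84. In pooled tissue, fewer cells of a type and less RNA per cell cannot be told apart.

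In STZ vehicle against normal vehicle, the glutathione transferases Gstm2 and Gstp1 had the largest positive differences of the 10 genes. Gpx2 (-0.22), Prdx6 (-0.21) and Cat (-0.21) were lower on average, and of these only Cat was lower in every week. No member passed the test over all probe sets (limma, Benjamini-Hochberg adjusted p under 0.05). Of the 9520 probe sets tested, 6 passed, which is 0.063%, and 1 of the 6 was higher. That count was 0 without the normal pool of week 3 or the STZ vehicle pool of week 2 or 3, 1 without the STZ vehicle pool of week 1, and 11 without the normal pool of week 1. At an unadjusted p under 0.05, 3 of the 10 members (Gstm2, Gstp1 and Cat) were counted, against 8.7% of all probe sets, and 3 to 5 members under the alternatives run. In every week 5 members were higher (Gstm2, Gstp1, Gsr, Gclm and Prdx3), against 15.4% of all probe sets, and 1 was lower (Cat), against 15.3%. Prdx3 is counted with a week 2 difference of only 0.00066. The median difference of the members was 0.17 on the log2 scale, and that of all probe sets tested was 0.00. The members were chosen with earlier results in view, so these counts describe them and test nothing. The arrays' matrix and cartilage marker levels given above moved between the same groups. Other lists also held markers lower in every week: 4 of 9 for myelinating Schwann cells, 5 of 8 for macrophages, and 2 of 4 for neutrophils and mast cells. In each of these 3 lists 0 were higher in every week. The part of such marker changes in the member differences was not tested.

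**Figure D1:**
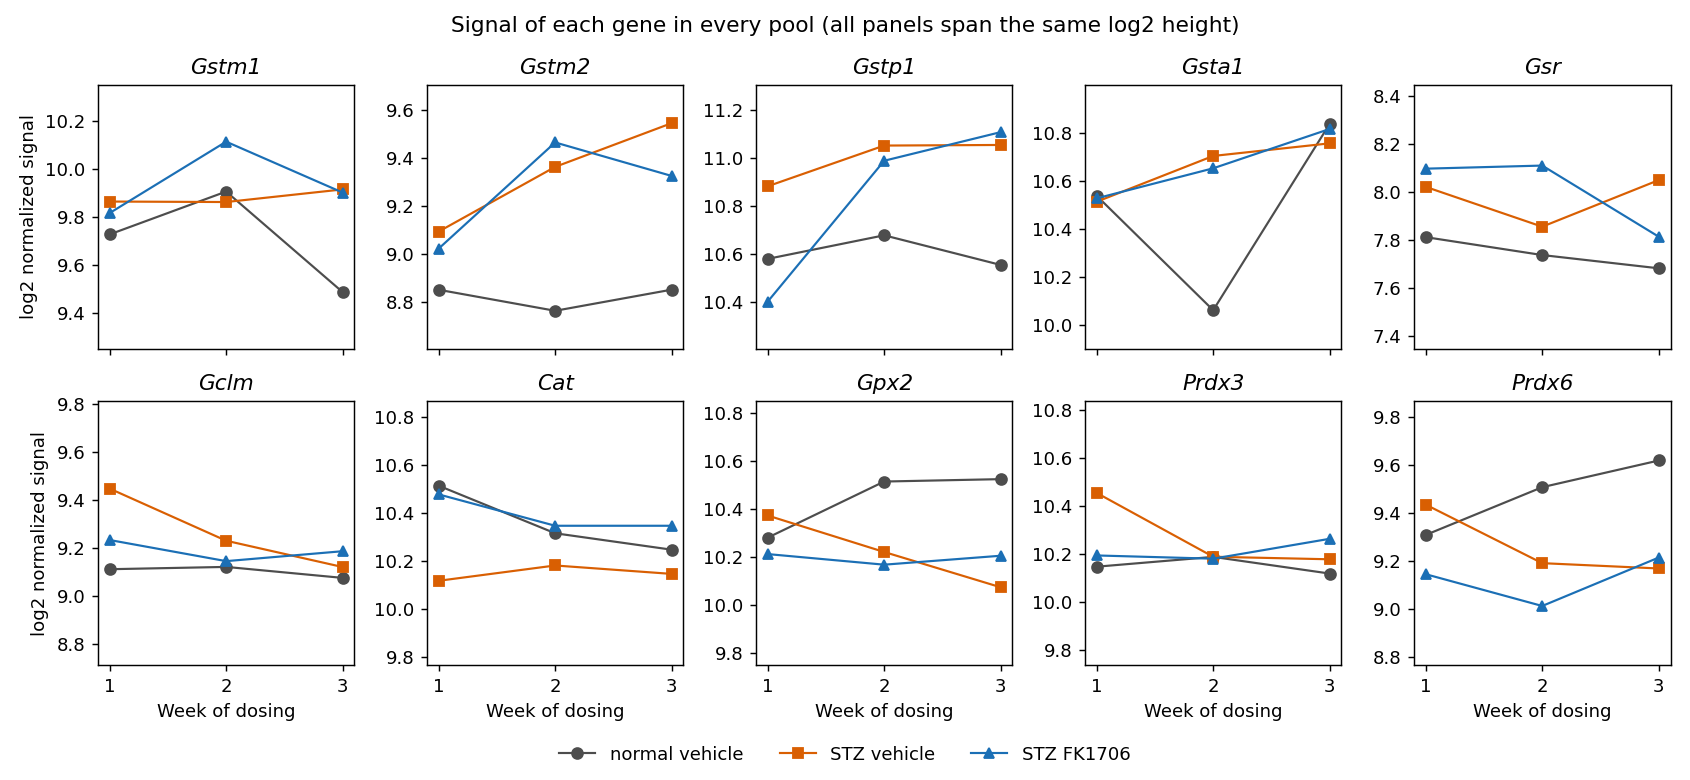
Quantile-normalized log2 level (y axis, placed separately for each gene with the same height) of the 10 probe sets at weeks 1, 2 and 3 (x axis), 1 point per array, coloured by group. Lines join the separate pools of a group and follow no animal. The 3 normal points of Gstm2 lie between 8.76 and 8.85, below all STZ points, and the 3 STZ vehicle points of Cat lie between 10.12 and 10.18, below all other points.

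Gstm2 encodes a mu-class glutathione transferase, an enzyme that joins glutathione to reactive compounds. Its log2 level was 8.85, 8.76 and 8.85 in the normal pools of weeks 1, 2 and 3, 9.09, 9.36 and 9.55 in STZ vehicle, and 9.02, 9.47 and 9.33 with FK1706. All 6 STZ pools lay above all 3 normal pools, and the normal pools differed little among themselves (8.82 ± 0.051, SD, n = 3). STZ vehicle exceeded normal by 0.51 (SE 0.117), a 1.43-fold difference with a 95% interval of 1.19 to 1.71 that is not adjusted for the number of probe sets. The weekly differences were 0.24, 0.60 and 0.69. The unadjusted p was 0.00117 and the adjusted p 0.284, and 31 of the 9520 probe sets had a larger positive difference. The promoter of Gstm2 is shown because its difference was the widest of the members while its window held no match to the searched core. These are the 250 bases before its start, at chr2:198316918-198317167 (minus strand, GRCr8).
Gstm2: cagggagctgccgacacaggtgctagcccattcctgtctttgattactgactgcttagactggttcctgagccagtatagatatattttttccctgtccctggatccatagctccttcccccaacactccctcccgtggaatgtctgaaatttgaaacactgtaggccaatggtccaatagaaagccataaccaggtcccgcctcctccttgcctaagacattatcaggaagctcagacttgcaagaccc
Gstm1, which lies next to Gstm2 on chromosome 2, encodes the other mu-class enzyme among the 10 members. Its levels were 9.73, 9.91 and 9.49 in the normal pools, 9.86, 9.86 and 9.92 in those of STZ vehicle and 9.82, 10.11 and 9.90 with FK1706. The normal and STZ vehicle pools overlapped, and their difference of 0.17 (weekly 0.14, -0.044 and 0.43) had an adjusted p of 0.636. The mu-class genes Gstm4, Gstm5 and Gstm7, which are not members, were also tested. They differed by -0.062, -0.052 and 0.096 between STZ vehicle and normal, and none passed. Mu-class genes resemble each other closely, so part of a signal could come from a neighbour's transcript, and the probe sequences were not used here.

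Gstp1 encodes the pi-class transferase, which is abundant in many nervous tissues. Its levels were 10.58, 10.68 and 10.56 in the normal pools, 10.88, 11.05 and 11.06 in those of STZ vehicle and 10.40, 10.99 and 11.11 with FK1706. The STZ vehicle pools lay above all normal pools in each week, whereas the FK1706 pool of week 1 was the lowest of all 9. STZ vehicle exceeded normal by 0.39 (SE 0.117), a 1.31-fold difference with a 95% interval of 1.10 to 1.57, and by 0.30, 0.37 and 0.50 in weeks 1, 2 and 3. The unadjusted p was 0.00643 and the adjusted p 0.414. The 250 bases before the Gstp1 start, at chr1:210769706-210769955 (minus strand), are given because they hold the match to the core shown earlier.
Gstp1: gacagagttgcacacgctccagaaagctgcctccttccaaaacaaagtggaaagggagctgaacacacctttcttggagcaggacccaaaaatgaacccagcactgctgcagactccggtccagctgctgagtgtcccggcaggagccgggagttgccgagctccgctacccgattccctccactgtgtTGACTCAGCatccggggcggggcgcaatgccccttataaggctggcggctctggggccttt
The gene table names 3 pseudogenes of Gstp1, 3 of Prdx6, 2 of Gpx2 and 1 of Prdx3, and their share of these signals is not known.

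Gsta1 encodes an alpha-class transferase, which also reduces lipid peroxides. Its levels were 10.54, 10.06 and 10.84 in the normal pools, 10.51, 10.70 and 10.76 in those of STZ vehicle and 10.53, 10.65 and 10.82 with FK1706. The week 2 normal pool stood lowest, and the groups overlapped otherwise. The difference between STZ vehicle and normal was 0.18 (adjusted p = 0.716), and without the week 2 normal pool it was -0.039. That pool also had the highest summed level of 11 skeletal muscle markers, at 13.17 against 12.17 to 12.79 in the other 8 arrays, and its part in the Gsta1 value was not tested.

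Of the genes that keep glutathione available, Gsr encodes glutathione reductase and Gclm the modifier subunit of glutamate-cysteine ligase. Gsr was at 7.81, 7.74 and 7.68 in the normal pools, 8.02, 7.85 and 8.05 in those of STZ vehicle and 8.10, 8.11 and 7.81 with FK1706. Every STZ pool of Gsr exceeded every normal pool, though the week 3 FK1706 pool did so by less than 0.01. STZ vehicle exceeded normal by 0.23 (SE 0.132, adjusted p = 0.628) and FK1706 exceeded normal by 0.26 (adjusted p = 0.634). Gclm was at 9.11, 9.12 and 9.07 in the normal pools, 9.45, 9.23 and 9.12 in those of STZ vehicle and 9.23, 9.14 and 9.19 with FK1706. The week 1 STZ vehicle pool was the highest, and the excess over normal was 0.34, 0.11 and 0.045 in weeks 1, 2 and 3 (mean 0.16, adjusted p = 0.639). Prdx3, the mitochondrial peroxiredoxin, had a similar course, with 10.15, 10.19 and 10.12 in the normal pools, 10.45, 10.19 and 10.18 in those of STZ vehicle and 10.19, 10.18 and 10.26 with FK1706. Its week 1 STZ vehicle pool was again the highest, its week 2 difference was 0.00066, and its mean difference of 0.12 had an adjusted p of 0.716. Without the week 1 STZ vehicle pool the mean difference was 0.026 for Prdx3 and 0.086 for Gclm.

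The other 3 enzymes that remove peroxides were on average lower in STZ vehicle than in normal rats. Cat encodes catalase, the peroxisomal enzyme that splits hydrogen peroxide. It was at 10.51, 10.31 and 10.25 in the normal pools, 10.12, 10.18 and 10.15 in those of STZ vehicle and 10.48, 10.35 and 10.35 with FK1706. The STZ vehicle pools lay below all others, and those of the other 2 groups overlapped. STZ vehicle minus normal was -0.21 (SE 0.0819, unadjusted p = 0.0263, adjusted p = 0.509), and the weekly differences were -0.40, -0.13 and -0.10. Without the week 1 STZ vehicle pool the difference was -0.14 (unadjusted p = 0.179), and without the week 1 normal pool it was -0.15 (unadjusted p = 0.137). Without any week 1 pool it was -0.12 (unadjusted p = 0.255).

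Gpx2 encodes a glutathione peroxidase best known from gut epithelium. Its levels were 10.28, 10.51 and 10.52 in the normal pools, 10.37, 10.22 and 10.07 in those of STZ vehicle and 10.21, 10.17 and 10.20 with FK1706. Prdx6, a peroxiredoxin that draws on glutathione, was at 9.31, 9.51 and 9.62 in the normal pools, 9.44, 9.19 and 9.17 in those of STZ vehicle and 9.15, 9.01 and 9.22 with FK1706. For both genes the week 1 STZ vehicle pool lay above its normal counterpart and those of weeks 2 and 3 lay below. The difference of Gpx2 was 0.093, -0.29 and -0.45 by week (mean -0.22, adjusted p = 0.579), and that of Prdx6 was 0.13, -0.32 and -0.45 (mean -0.21, adjusted p = 0.610).

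**Figure D2:**
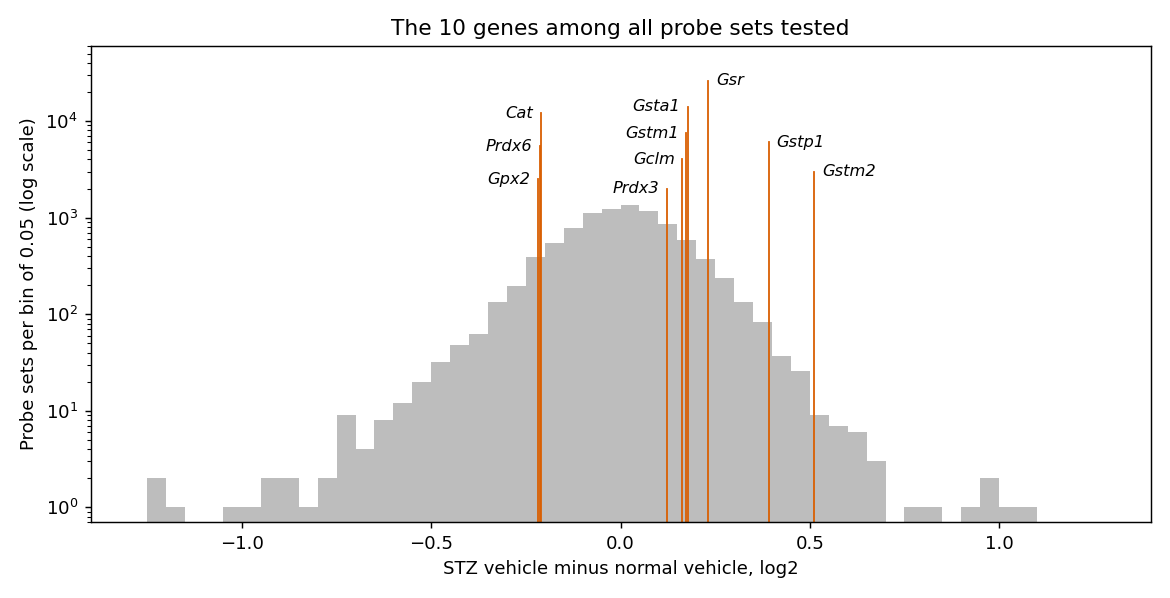
Histogram of the log2 difference of STZ vehicle minus normal vehicle (x axis) over the 9520 probe sets tested, with the number per bin on a log scale (y axis), and an orange line at each of the 10 genes. Gstm2 at 0.51 and Gstp1 at 0.39 lie in the right tail, where 31 and 106 probe sets have a larger positive difference, and the other 8 lie between -0.22 and 0.23.

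FK1706 against STZ vehicle asks whether levels differed with dosing among diabetic rats, and catalase was the member with the widest difference. Cat was higher with FK1706 by 0.24 (SE 0.0819), or 1.18-fold, and by 0.36, 0.17 and 0.20 in weeks 1, 2 and 3 (unadjusted p = 0.0133, adjusted p = 0.999). No probe set passed in this comparison (limma, 0%), 321 had an unadjusted p under 0.05 (3.37%), and the smallest adjusted p of any was 0.999. Without the week 1 STZ vehicle pool Cat differed by 0.17 (unadjusted p = 0.104). Over all pools, Cat was the 1 member of 10 at an unadjusted p under 0.05 and the 1 member higher in every week, against 12% of all probe sets, while 0 members were lower in every week, against 11.8%. The count at an unadjusted p under 0.05 was 0 without the week 1 STZ vehicle pool and on the deposited scale, and 2 without the week 3 FK1706 pool. The comparison shares its STZ vehicle pools with the comparison to normal, in which the same 3 Cat pools were low. Gstp1 differed by -0.16 and by -0.48, -0.063 and 0.054 in the 3 weeks, and without the week 1 FK1706 pool the difference was 0.017. Prdx6 differed by -0.14 and by -0.29, -0.18 and 0.046, with -0.018 without the week 1 STZ vehicle pool and -0.25 without that of week 3. The other 7 members differed by less than 0.08 in size on the log2 scale. The median of the members was -0.044 and that of all probe sets 0.00.

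FK1706 against normal vehicle, which shares arrays with both other comparisons, left Gstm2 higher and Prdx6 lower without either passing. Gstm2 was higher by 0.45 (weekly 0.17, 0.70 and 0.47, unadjusted p = 0.00291, adjusted p = 0.328). Prdx6 was lower in every week, with a mean difference of -0.35 (SE 0.115, weekly -0.16, -0.49 and -0.40, unadjusted p = 0.0106, adjusted p = 0.475), and its FK1706 pools lay below all normal pools. Gpx2 was also lower in every week (-0.24, adjusted p = 0.587), and Gstm1 was higher in every week (0.24, adjusted p = 0.595) though its groups overlapped. These 4 were the members at an unadjusted p under 0.05, against 8.16% of all probe sets, or 777. Their number was 1 without the normal pool of week 3, 2 without the normal or FK1706 pool of week 2, and 5 without the normal pool of week 1. No probe set passed (limma, 0%). In every week 4 members were higher (Gstm1, Gstm2, Gsr and Gclm), against 14% of probe sets, and 2 were lower, against 13.8%. Gstp1 differed by -0.18, 0.31 and 0.55 by week (mean 0.23), and without the week 1 pools the mean was 0.43. Cat differed from normal by 0.032.

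**Figure D3:**
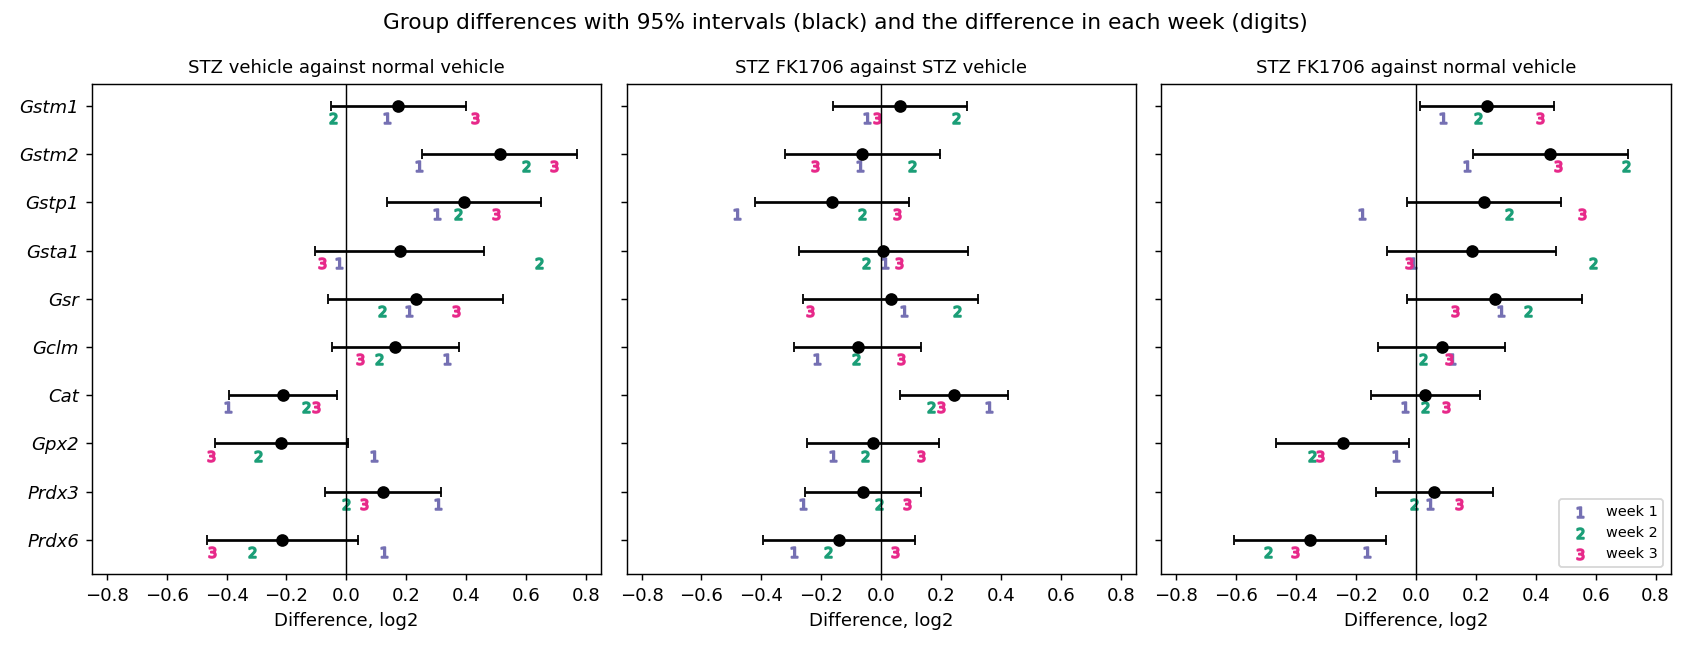
Log2 difference between groups (x axis) for the 10 genes (y axis) in the 3 comparisons, with the mean difference and its 95% interval from limma, unadjusted, and a digit for the difference in each week. For STZ vehicle minus normal, the intervals of Gstm2 and Gstp1 lie above 0 and that of Cat below 0. For FK1706 minus STZ vehicle, only that of Cat excludes 0, and it lies above. For FK1706 minus normal, those of Gstm1 and Gstm2 lie above 0 and those of Gpx2 and Prdx6 below. None of these passed after adjustment over 9520 probe sets.

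Across the weeks, no member passed after the arrays had been put on 1 scale, and 0 had an unadjusted p under 0.05. In this test the 3 groups stood in for replicates of a week, since each group had 1 pool per week. Age of the animals, time since injection and length of dosing move with week and cannot be told apart here. Of all probe sets, 0.0525% passed (0 to 7 probe sets when 1 pool was left out) and 10.7% had an unadjusted p under 0.05. Gstp1 came nearest, with means over the 3 groups of 10.62, 10.91 and 10.91 in weeks 1, 2 and 3 (unadjusted p = 0.0504, adjusted p = 0.468), followed by Gsta1 with 10.53, 10.47 and 10.80 (unadjusted p = 0.0541, adjusted p = 0.470). On the deposited scale, where the median probe set was lower by 0.43 at week 3 than at week 1 (-0.43), 7 of the 10 members and 5936 of 9520 probe sets passed. The week differences therefore turn on the scaling.

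A model with group, week and a linear week term for each STZ group tested whether group differences grew or shrank. It left fewer residual degrees of freedom than the 4 of the group comparisons. No probe set passed (limma, 0%), and 4.26% had an unadjusted p under 0.05, as did 1 member, Gstp1 (unadjusted p = 0.0112, adjusted p = 0.999). The Gstp1 difference between FK1706 and STZ vehicle moved by 0.27 per week (SE 0.098), and that between FK1706 and normal by 0.37 per week (SE 0.098, unadjusted p = 0.00422, adjusted p = 0.838), the smallest p of any member slope. In both, the week 1 FK1706 pool was the low one. The difference of STZ vehicle from normal moved by -0.29 per week for Prdx6 (SE 0.127) and by -0.27 for Gpx2 (SE 0.106), each with an adjusted p of 0.999. For Gstm2 it moved by 0.23 per week (SE 0.143), so the widening seen from week 1 to week 3 did not pass (unadjusted p = 0.146, adjusted p = 0.999).

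**Figure D4:**
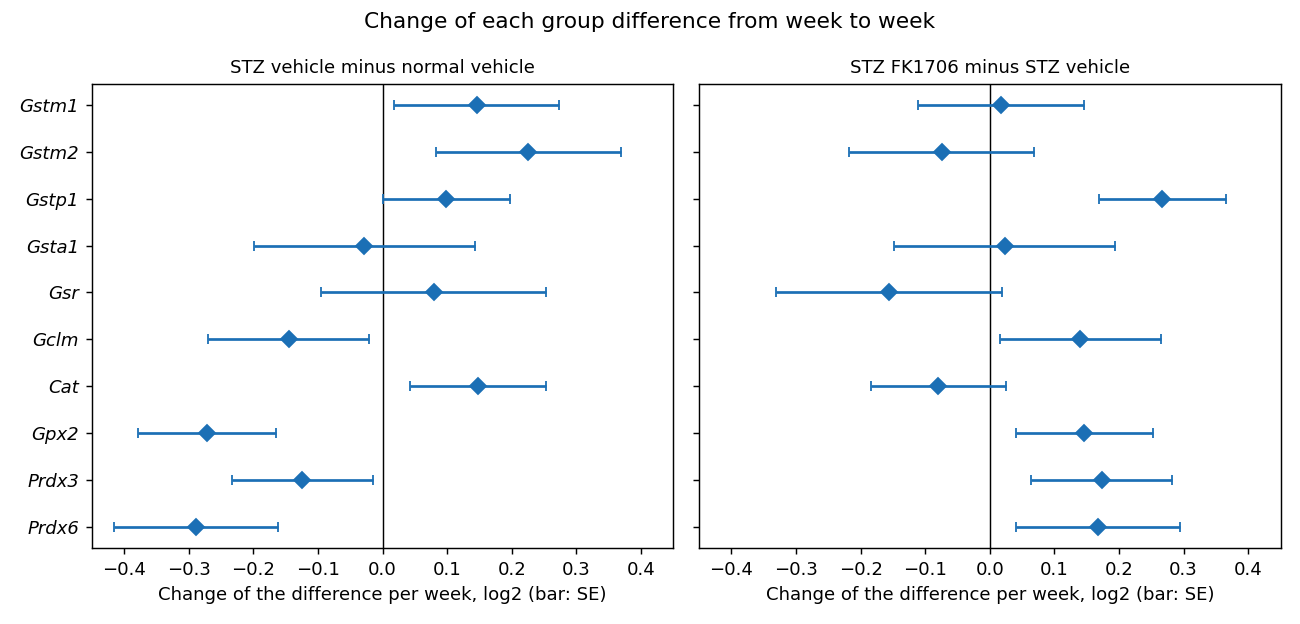
Change per week of the log2 difference between groups (x axis, bar: SE) for the 10 genes (y axis), for STZ vehicle minus normal (left) and FK1706 minus STZ vehicle (right). Gstp1 lies at 0.27 on the right, and Gpx2 and Prdx6 lie at -0.27 and -0.29 on the left.

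The other enzymes of glutathione and peroxide metabolism were taken from a list of 46 genes, of which 40 were on the array and 34 were tested. None passed in any of the 3 group comparisons or across weeks (limma). In STZ vehicle against normal, 1 of the 34 was higher and 5 were lower at an unadjusted p under 0.05. Of all probe sets, 8.7% were under 0.05 in either direction. The median difference of the list was -0.0099. The 4 with the largest test statistic were all lower. Txn1, the thioredoxin that keeps peroxiredoxins reduced, differed by -0.25 (adjusted p = 0.316). Gpx8 differed by -0.37 (adjusted p = 0.372) and Gpx7 by -0.40 (adjusted p = 0.432), and both encode peroxidases of the endoplasmic reticulum. Prdx4, a peroxiredoxin of the same compartment, differed by -0.27 (adjusted p = 0.384). In FK1706 against normal these 4 also led, at -0.15, -0.42, -0.28 and -0.27 in the same order, and the 2 comparisons share the normal pools. In FK1706 against STZ vehicle, Gstt3 differed by 0.19, Ggt7 by 0.18, Txn1 by 0.10 and Gstk1 by -0.17, each with an adjusted p of 0.999. The summed level of the fibroblast and matrix markers, given above, was lower in the same STZ pools, and its part here was not tested.

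A list of 26 regulators and further targets of NRF2 had 19 genes on the array and 18 tested, and none passed in any comparison. In STZ vehicle against normal, 1 of the 18 was higher and 2 were lower at an unadjusted p under 0.05, with a median of 0.012. The share of all probe sets under 0.05 in either direction was 8.7%. Me1, the malic enzyme that supplies NADPH, differed by -0.35 (adjusted p = 0.339) and Taldo1, transaldolase of the pentose phosphate pathway, by 0.26 (adjusted p = 0.477). Nfe2l2, which encodes NRF2, differed by -0.24 (adjusted p = 0.531), and Cbr1, a carbonyl reductase, by 0.21 (adjusted p = 0.582). In FK1706 against normal, Taldo1 differed by 0.40, Me1 by -0.35, Nfe2l2 by -0.28 and Esd, an esterase, by -0.23. In FK1706 against STZ vehicle, Idh1 differed by -0.21, Sqstm1 by 0.10, Taldo1 by 0.13 and Nqo1 by -0.096, each with an adjusted p of 0.999. In the group comparisons, members and listed genes alike thus lay on both sides of 0. Across weeks, 4 of the 18 had an unadjusted p under 0.05 (limma F test), against 10.7% of all probe sets. All 4 were higher at week 3 than at week 1: Nqo1 by 0.36 (adjusted p = 0.262), Ugdh by 0.29 (0.299), Mafk by 0.55 (0.339) and Keap1 by 0.067 (0.443). Of the 34 other enzymes, 4 were higher and 2 lower in that test.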

How the data were processed

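The authors deposited 1 intensity per probe set and array on a linear scale, made with MAS5 per the submitters' processing notes, whose version is not given. Of 15923 probe sets, 57 are controls. For the others, log2 of the signal plus 18.7 (the 10th percentile) was quantile-normalized. Detection calls were not used here. Probe sets whose mean reached the 40th percentile were tested with limma 3.58.1 in R 4.3.3 (lmFit, eBayes with trend) in a model of group plus week on all 9 arrays (4 residual degrees of freedom), two-sided, with Benjamini-Hochberg adjustment over 9520 probe sets. Week entered as a block because the labels state a shared week; same-week arrays correlated with r from -0.0118 to 0.244 after group means were removed. With 1 pool per group and week, the p-values rest on the departure of pools from the group and week averages. That departure holds both the spread between pools and any change of a group difference over the weeks. The number of arrays limits precision. Named list genes are the 4 with the largest test statistic in each comparison of groups, and across weeks for the NRF2 list. Promoters came from RefSeq (GRCr8). Members and lists were chosen with earlier results of these data known. The model was tested on simulated data. Alternatives covered scaling, offset, filter, trend, block and left-out pools.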

Additional observations from a re-analysis of the deposited data

How the results depend on the processing

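No member was called under any alternative to a group comparison. Over 21 alternatives, 18 of the 30 member differences kept their direction throughout, and 30 of 627 values were reversed. Among these 18 were Gstm2, Gstp1 and Cat in STZ vehicle against normal and Cat in FK1706 against STZ vehicle.

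On the deposited scale the counts of probe sets passing were 12 for STZ vehicle against normal, 89 for FK1706 against normal, 5936 across weeks (7 of them members) and 1 for linear week terms. That scale shifted the median probe set by -0.17 in FK1706 against normal and by -0.066 in FK1706 against STZ vehicle. There Cat, Gclm and Prdx3 turned to -0.14, -0.090 and -0.12 in FK1706 against normal, and Gsr, Gsta1 and Gstm1 to -0.024, -0.064 and -0.0078 in FK1706 against STZ vehicle. These 6 are among the 30 reversed values, and relative to the median probe set 0 of the 6 were reversed. Trimmed-mean scaling gave 1 for FK1706 against normal and 1 across weeks. No filter gave 0 for STZ vehicle against normal (1175 at unadjusted p under 0.05) and 0 across weeks (1471), and no trend in the prior gave 0 (781) and 0 (1054), all with limma. Without the replicate block on week, 1 passed for STZ vehicle against normal. FK1706 against normal gave 2 with the filter at the 60th percentile, 1 with 1 probe set per gene and 2 when only the 2 groups entered the fit.

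Leaving out pools gave 0 to 11 for STZ vehicle against normal, with 0 without normal week 3, STZ vehicle week 2 or STZ vehicle week 3, and 11 without normal week 1. It gave 0 to 2 for FK1706 against normal and 0 to 7 across weeks. Gsta1 ranged from -0.055 to 0.31 in STZ vehicle against normal and from -0.031 to 0.30 in FK1706 against normal, where Cat ranged from -0.012 to 0.096. In FK1706 against STZ vehicle the ranges were -0.13 to 0.083 for Gpx2, -0.080 to 0.17 for Gsr, -0.078 to 0.14 for Gsta1, -0.039 to 0.15 for Gstm1, -0.17 to 0.021 for Gstm2, -0.30 to 0.017 for Gstp1 and -0.14 to 0.038 for Prdx3. Without a sign change, in STZ vehicle against normal Gpx2 ranged from -0.37 to -0.099, Prdx6 from -0.38 to -0.096, Gstm1 from 0.046 to 0.28 and Gsr from 0.13 to 0.31, and in FK1706 against normal Gstp1 ranged from 0.070 to 0.43 and Gstm1 from 0.13 to 0.31. The cause of the changes on leaving out pools was not tested. A second probe set per member could not be tried, since each has 1.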
